A study of Mus musculus with 12 samples.

Results

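The 9 genes described here handle fatty acids at the surface of lung endothelial cells (ECs) and inside them: Cd36, Lpl, Fabp4, Fabp5, Angptl4, Pnpla2, G0s2, Cpt1a and Pparg. They were chosen by name as a functional group, with earlier results of these data known, out of 18193 genes with a probe set on the arrays. Each is read through the probe set assigned to that gene alone with the highest mean over the 12 arrays. All 9 were measured. Lung ECs were compared 1, 2 and 3 weeks after cancer cells had been placed in the lungs and in lungs without metastases, which asks how the endothelium changes while metastases grow.

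There were 3 arrays for each of 4 groups. The metastatic groups came from female NSG mice, an immunodeficient strain without functional lymphocytes, that received MDA-MB-231-LM2 cells, a lung-metastatic derivative of a human breast cancer line, through the tail vein at 6 to 8 weeks of age. The healthy group came from age-matched NSG mice. In every group the cells were sorted as CD31+ and negative for CD45, CD11b, EpCAM, CD140a, CD140b and GFP, the label of the cancer cells, and a small amount of their RNA was amplified before hybridisation. The arrays are described as biological replicates, and whether an array holds the lung of 1 mouse or a pool is not given in the sources used here.

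Capillary ECs are the gate through which fatty acids pass from blood to tissue. LPL, held on the luminal face of the capillary, releases fatty acids from circulating triglyceride, CD36 takes them up, and the fatty acid binding proteins carry them through the cytosol. Fatty acids kept in lipid droplets are set free by ATGL, the product of Pnpla2, which G0S2 inhibits, and CPT1A admits them to mitochondria for oxidation. PPARG is a nuclear receptor that fatty acids activate and that switches on many of these genes.

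Values are log2 signals, so a difference of 1 is a doubling of the signal, and a gene was called changed where limma gave a p below 0.05 after Benjamini-Hochberg adjustment across 45037 probe sets. Array medians were all 8.13, and correlations between arrays of a group between 0.973 and 0.983. The mean of 19 pan-endothelial markers was 12.93 to 12.97 at week 1 and 12.92 to 12.94 at week 2. It was 12.89 to 12.96 at week 3 and 12.83 to 12.90 in healthy arrays. These probe sets are bright, and a level mean does not measure how pure the sort was. Marker lists of several cell types that the sort was meant to remove had lower means in the metastatic arrays. The mean of 11 fibroblast markers was 11.09, 10.85 and 11.07 at weeks 1, 2 and 3, against 11.79 in healthy arrays, and that of 8 alveolar type 2 markers was 10.24, 10.41 and 10.52, against 11.39. For these lists and for the mural and alveolar type 1 lists, every one of the 9 metastatic arrays lay below every healthy array. In healthy arrays the brightest alveolar type 2 marker, Sftpc, was at 13.53 and the brightest fibroblast marker, Inmt, at 13.34. The endothelial gene Pecam1 was at 13.45 there. In such bulk material, fewer cells of a type and less RNA per cell cannot be told apart.

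**Figure D1:**
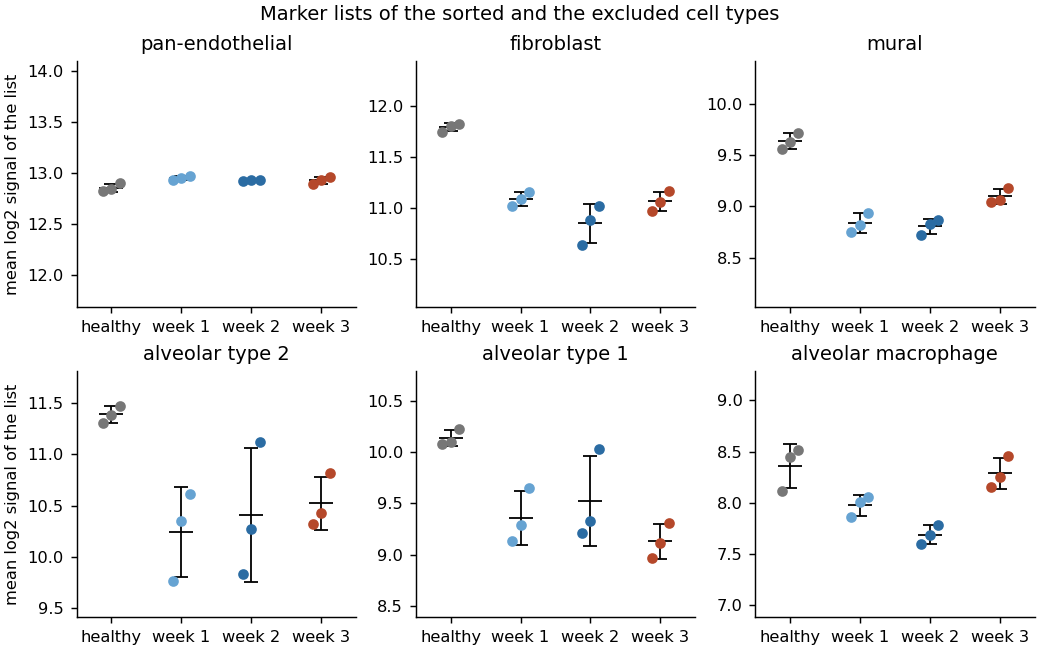
Mean log2 signal of 6 marker lists (y axis; each panel spans the same number of log2 units) in the 3 arrays of each group (points), with the group mean and SD (bars). The pan-endothelial list stayed between 12.83 and 12.97, while the fibroblast, mural, alveolar type 2 and alveolar type 1 lists were highest in the healthy arrays.

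G0s2 was the only one of the 9 genes called against healthy arrays, lower at week 1 and at week 3. Its signals were 9.08, 8.81 and 9.06 in the week 1 arrays, 9.03, 9.46 and 8.82 in the week 2 arrays and 8.61, 8.95 and 9.03 in the week 3 arrays, against 10.19, 10.30 and 10.29 in the healthy arrays. All 9 metastatic arrays lay below all 3 healthy arrays, with a gap between the highest metastatic array at 9.46 and the lowest healthy array at 10.19.

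G0s2 encodes the G0/G1 switch protein 2, a small inhibitor of ATGL and so a brake on the breakdown of stored triglyceride. At week 3 it was 2.64-fold lower (log2 fold change -1.40, SE 0.14, adjusted p = 0.0043), and at week 1 it was 2.43-fold lower (log2 fold change -1.28, SE 0.13, adjusted p = 0.0394). At week 2 the difference was -1.16 (SE 0.17) and did not pass the threshold (adjusted p = 0.0723). G0s2 was 1 of 9 members called at week 1, when 0.0495% of all genes were called in either direction, and 1 of 9 at week 3, when 5.01% were called. At week 2 none of the 9 was called, against 0.242% of all genes. Because the members were chosen with earlier results of these data known, these shares are a description.

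The calls differed in whether they held in the smaller fits with an array left out. At week 3 G0s2 passed with any 1 of the 6 arrays left out, at adjusted p between 0.0106 and 0.026. At week 1 the call was lost whichever array was left out (adjusted p 0.0588 to 0.204), although the difference itself moved only between -1.33 and -1.19. At week 2 the difference passed without replicate 2 of week 2 (-1.34, adjusted p = 0.0455) and in 4 of 7 other settings (adjusted p 0.0127 to 0.0414), among them the fit of all 12 arrays together.

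G0s2 did not pass the threshold in any comparison between weeks. The difference was -0.24 between week 3 and week 2 (95% interval -0.69 to 0.22), -0.12 between week 3 and week 1 (-0.48 to 0.24) and 0.12 between week 2 and week 1 (-0.31 to 0.54). G0s2 was also the only 1 of the 9 to pass the moderated F test of any difference among the 4 groups, which 5.25% of all genes passed.

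The fall of G0s2 ran beside lower means of the stromal and epithelial marker lists, whose members did not all move alike. Pdgfra, which encodes the CD140a used to exclude fibroblasts, had 9.66 at week 3 against 11.91 in healthy arrays (log2 fold change -2.25, adjusted p = 0.0046), and Sftpc, a surfactant gene of alveolar type 2 cells, fell by 0.59 on the log2 scale (adjusted p = 0.0351). Other fibroblast genes were level or above healthy arrays at week 3 without a call, with 12.15 against 11.51 for Fn1, 12.04 against 11.86 for Col1a1 and 12.70 against 12.70 for Col1a2, and Fn1 and Col1a1 were called higher at week 3 than at week 2 (1.41 and 1.29 on the log2 scale, adjusted p = 0.0176 each) and than at week 1. At week 3, 6 of 11 fibroblast, 2 of 10 mural, 4 of 8 alveolar type 2 and 4 of 6 alveolar type 1 markers fell past the threshold. Of all genes, 2.63% did so. The fibroblast markers that fell beside Pdgfra included Tcf21, with 8.28 at week 3 against 10.07 in healthy arrays, and Inmt, with 12.01 against 13.34. The others were Npnt (11.28 against 12.43), Dcn (10.98 against 12.10) and Mfap4 (11.78 against 12.55). The week 2 array with the highest G0s2, 9.46, also had the highest alveolar type 2 mean of the metastatic arrays, 11.12. At week 3 the order was the reverse, 10.82, 10.43 and 10.32 for alveolar type 2 beside 8.61, 8.95 and 9.03 for G0s2. Replicate 1 of week 1 had the lowest alveolar type 2 mean of the series, 9.76, and the highest G0s2 of its week, 9.08. The part of these cells in the result was not tested. G0s2 is also abundant in adipocytes. Of 5 adipocyte markers, all 5 were below 0 at week 3 (median -0.12), as were 45.7% of all genes, and none was called. Adipoq, the adiponectin gene, was among the dimmer probe sets at 6.17 at week 3 against 6.22 in healthy arrays. The part of adipocytes was not tested either.

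**Figure D2:**
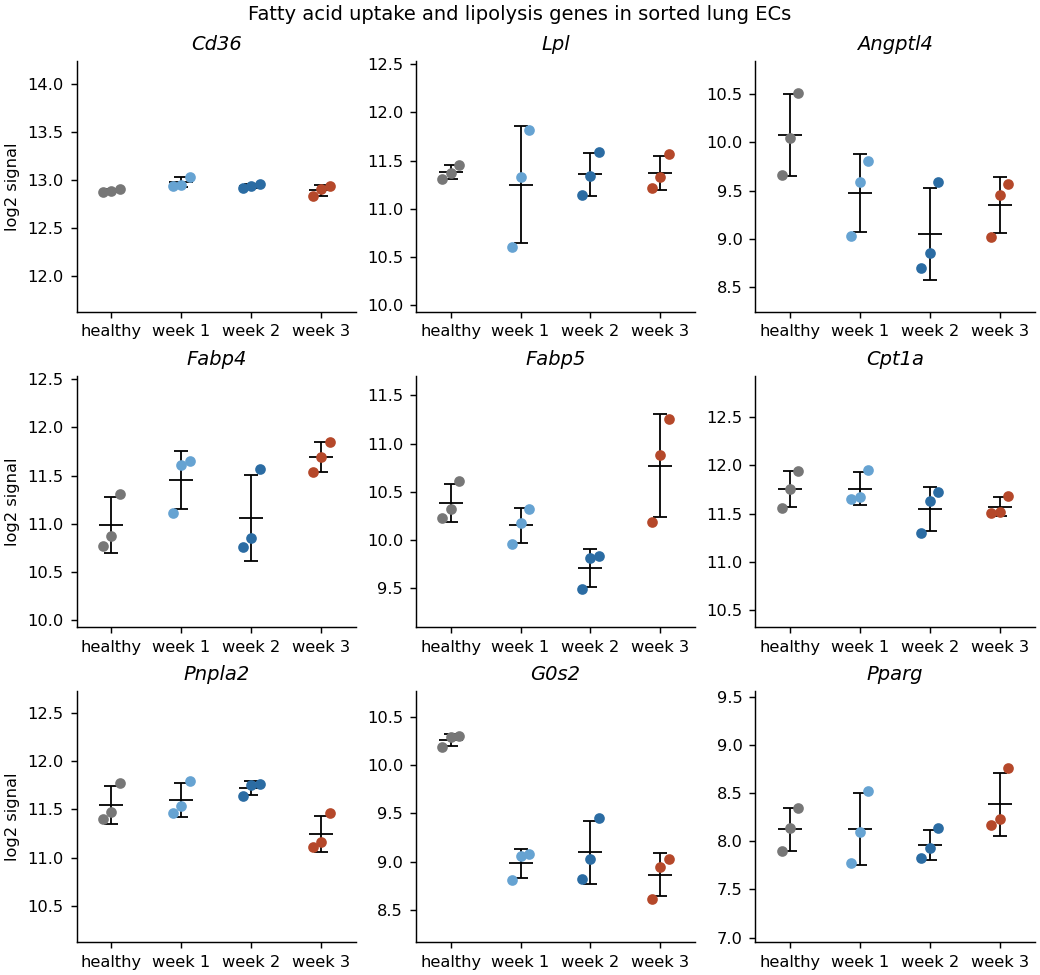
Log2 signal (y axis; each panel spans the same number of log2 units) of the 9 genes in the 3 arrays of each group (points), with the group mean and SD (bars). All 9 metastatic arrays of G0s2 lie below its healthy arrays, whereas the probe set used for Cd36 varies by 0.20 over the 12 arrays.

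Because G0s2 was the called member, the 250 bases before its transcription start are shown, from RefSeq on GRCm38.p6 at chr1:193273189-193273438, minus strand, written toward the gene, which lies at chr1:193272160-193273188. Capitals mark GCGTG, a core to which hypoxia-inducible factors can bind.
G0s2: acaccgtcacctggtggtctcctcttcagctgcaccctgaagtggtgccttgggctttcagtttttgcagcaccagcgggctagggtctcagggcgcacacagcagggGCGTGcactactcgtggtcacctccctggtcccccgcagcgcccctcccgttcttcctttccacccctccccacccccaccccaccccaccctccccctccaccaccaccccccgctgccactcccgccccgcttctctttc
On either strand this window held 1 GCGTG, 142 bases upstream of the start, as did 28.2% of 32851 promoter windows of the same length. It held no ACGTG (16.6% of windows), no AGGTCA half-site of nuclear receptors (in 4607 of the windows) and no direct repeat of that half-site with 1 base of any kind between its copies, the DR1 element that PPARG binds with its partner RXR (0.0335%). Among the members, 5 had an entry in the table, and AGGTCA was in a window of Cd36, Cpt1a and Pparg but in none of Pnpla2.

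Neither surface gene was called. The group means of Cd36 lay close together in the probe set used, which was at percentile 99.4 of all probe sets by mean signal. Cd36, the fatty acid translocase, had 12.94, 12.95 and 13.03 at week 1, 12.94, 12.96 and 12.92 at week 2 and 12.94, 12.90 and 12.83 at week 3, against 12.88, 12.91 and 12.88 in healthy arrays. The week 1 and week 2 arrays lay just above the healthy ones and the week 3 arrays overlapped them. At week 3 the difference was 0.00 on the log2 scale, with a 95% interval of -0.23 to 0.23, that is 0.854-fold to 1.17-fold. The interval at week 1 was -0.17 to 0.34 and at week 2 -0.16 to 0.26. The other probe sets of Cd36 gave -0.022 (95% interval -0.25 to 0.21) and -0.32 (-0.61 to -0.03, adjusted p = 0.204) at week 3, so the dimmer of them had an interval below 0 and did not pass the threshold.

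Lpl, the lipoprotein lipase gene, averaged 11.25 ± 0.61 at week 1, 11.36 ± 0.22 at week 2 and 11.37 ± 0.18 at week 3, against 11.38 ± 0.07 in healthy arrays (SD, n = 3 each). The week 1 arrays spread from 10.60 to 11.81, wider than the other groups, and every week overlapped the healthy arrays. The week 3 interval was -0.30 to 0.29, while that at week 1, -0.78 to 0.52, leaves room for a change in either direction.

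Angptl4 encodes a secreted inhibitor of LPL that is itself switched on by PPARs and by fasting. Its signals were 9.81, 9.59 and 9.03 at week 1, 8.70, 9.59 and 8.85 at week 2 and 9.46, 9.02 and 9.57 at week 3, against 10.52, 10.05 and 9.66 in healthy arrays. All week 2 and week 3 arrays lay below the healthy ones, and 1 week 1 array overlapped them. The differences were -0.60, -1.03 and -0.73 at weeks 1, 2 and 3, none past the threshold (adjusted p = 0.564, 0.279 and 0.147).

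The second Angptl4 probe set gave -0.81, -1.38 and -1.03 for the same weeks, also short of the threshold (adjusted p = 0.571, 0.0807 and 0.0678). The first of the 2 has the suffix that Affymetrix gives to probe sets matching transcripts of more than 1 gene. With the probe sets of each gene averaged, Angptl4 passed at week 3 (-0.88, adjusted p = 0.041).

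**Figure D3:**
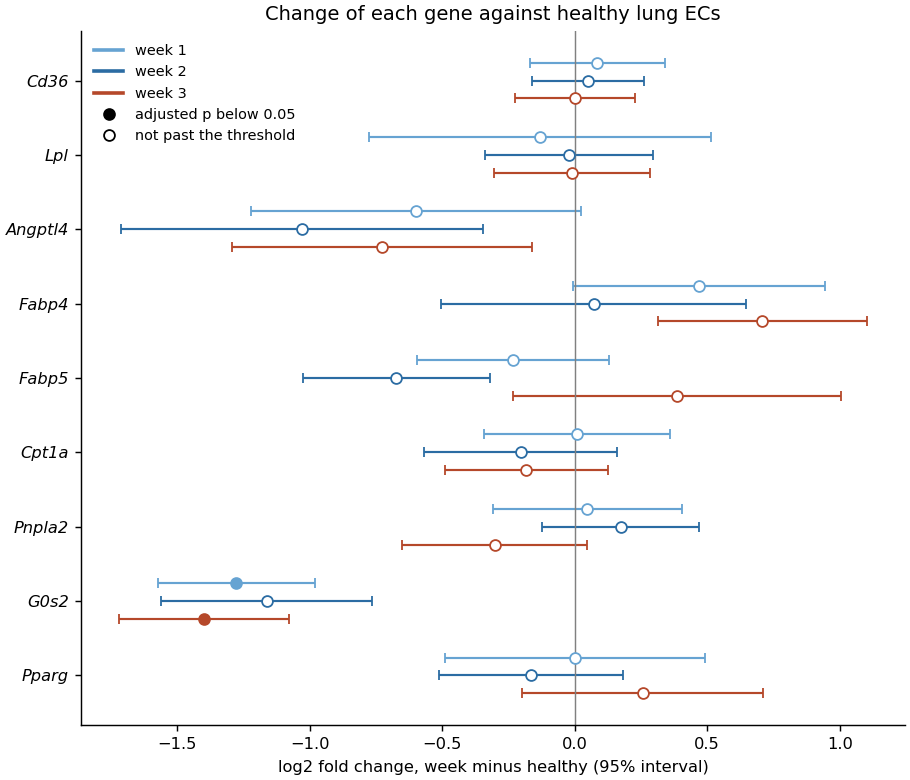
Log2 fold change against healthy arrays (x axis) of the 9 genes at weeks 1, 2 and 3, with 95% intervals of limma (bars) and filled symbols where the adjusted p was below 0.05. Only G0s2 has filled symbols, at week 1 and week 3; the intervals of Angptl4 at weeks 2 and 3, of Fabp5 at week 2 and of Fabp4 at week 3 also leave out 0 without an adjusted p below 0.05.

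Neither cytosolic carrier passed the threshold, with Fabp4 close to it at week 3. Fabp4, the carrier of capillary endothelium and adipocytes, had 11.61, 11.65 and 11.11 at week 1, 11.57, 10.75 and 10.85 at week 2 and 11.85, 11.69 and 11.54 at week 3, against 10.88, 10.77 and 11.31 in healthy arrays. The week 3 arrays were all above the healthy ones, and those of weeks 1 and 2 overlapped them. At week 3 the difference was 0.71 (SE 0.17), 1.63-fold, with an adjusted p of 0.0666. The 4 probe sets of Fabp4 gave 0.37 to 0.84 at week 3, and 1 that was not the brightest passed (0.81, adjusted p = 0.0309).

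The Fabp4 call at week 3 turned on the choice of method. It passed with dim probe sets removed (adjusted p = 0.0449), with the probe sets of a gene averaged (0.044), with a trended and robust variance (0.0281) and without healthy replicate 3 (0.0418), and it did not pass in the other fits (0.0668 to 0.174).

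Fabp5, the epidermal-type carrier that ECs express beside Fabp4, had 10.32, 10.17 and 9.96 at week 1, 9.81, 9.84 and 9.49 at week 2 and 10.88, 10.19 and 11.25 at week 3, against 10.61, 10.32 and 10.22 in healthy arrays. The week 2 arrays lay below all healthy arrays and below all week 3 arrays, and the week 3 arrays spread over 1 log2 unit. At week 2 the difference was -0.67 (SE 0.15, adjusted p = 0.185), and between week 3 and week 2 it was 1.06 (SE 0.26, adjusted p = 0.107).

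The second probe set of Fabp5 gave -0.12 at week 2 and 0.54 between week 3 and week 2. Read through the first probe set, the difference between week 3 and week 2 passed when all 12 arrays were fitted together (adjusted p = 0.0333) and without replicate 2 of week 3 (1.35, adjusted p = 0.047). Fabp4 and Fabp5 are also genes of alveolar macrophages, and the mean of 9 markers of these cells was 7.98 at week 1, 7.69 at week 2 and 8.29 at week 3, against 8.36 in healthy arrays. The part of macrophage RNA in the Fabp5 values was not tested. Of these 9 markers, 3 were below 0 between week 3 and week 2, where the list median was 0.44 and 50.1% of all genes were below 0. These 3 were Cd68 (8.97 against 9.33), Krt79 (7.41 against 7.44) and Plet1 (7.58 against 7.64). Cd68 was the only marker of the list called between week 3 and healthy arrays, and it was lower, from 10.15. Atp6v0d2 was called higher between week 3 and week 2, with 8.34 at week 3 against 6.85 at week 2 (log2 fold change 1.49, adjusted p = 0.0299). Chil3 and Mrc1 had the same order of means as Fabp5 at these weeks without a call, with 9.99 and 10.31 at week 3 against 7.99 and 9.08 at week 2 (adjusted p = 0.0922 and 0.0502). Siglecf and Marco, both defining markers, had 5.98 and 8.14 at week 3 against 5.83 and 7.70 at week 2. Siglecf was near the lowest signal on the arrays, 5.27. None of the 8 leukocyte markers was below 0 between week 3 and week 2 (median 0.59). Fcer1g among them was called higher, as were 1.35% of all genes.

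**Figure D4:**
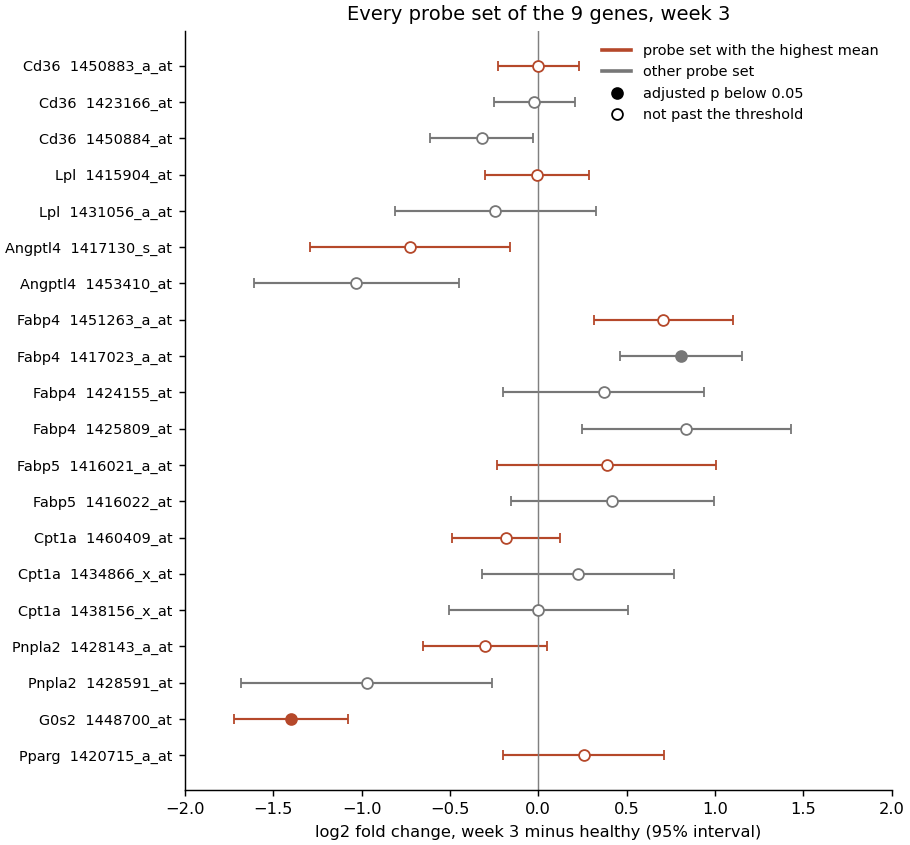
Log2 fold change between week 3 and healthy arrays (x axis) of all 20 probe sets of the 9 genes, with 95% intervals of limma (bars), in red for the probe set used for the gene and in gray for the others, and filled where the adjusted p was below 0.05. The 4 probe sets of Fabp4 all lie above 0, 1 of the 3 of Cd36 lies at -0.32 and the pairs of Angptl4 and Pnpla2 all below, with the dimmer probe set of Pnpla2 at -0.97.

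Pnpla2 encodes ATGL, the lipase that G0S2 holds back. Its signals were 11.79, 11.53 and 11.46 at week 1, 11.76, 11.77 and 11.64 at week 2 and 11.46, 11.11 and 11.16 at week 3, against 11.40, 11.47 and 11.77 in healthy arrays. The week 3 arrays lay below all week 2 arrays and, but for 1 array, below the healthy ones. Between week 3 and week 2 the difference was -0.48 (SE 0.12, adjusted p = 0.116), and between week 3 and healthy arrays it was -0.30 (SE 0.15, adjusted p = 0.307). The second probe set gave -0.998 and -0.97 for the same comparisons (adjusted p = 0.166 and 0.131). With a trended and robust variance, the difference between week 3 and week 2 passed (adjusted p = 0.0432).

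Cpt1a, the gate of mitochondrial fatty acid oxidation, had 11.95, 11.68 and 11.65 at week 1, 11.29, 11.72 and 11.63 at week 2 and 11.51, 11.52 and 11.68 at week 3, against 11.94, 11.75 and 11.56 in healthy arrays. Every week overlapped the healthy group. The differences were 0.01 at week 1 (95% interval -0.34 to 0.36), -0.20 at week 2 (-0.57 to 0.16) and -0.18 at week 3 (-0.49 to 0.12). The other probe sets of Cpt1a gave -0.13 and -0.30 at week 2. At week 3 they gave 0.22 (95% interval -0.32 to 0.77) and 0.00056 (-0.51 to 0.51), so the value below 0 was not shared there.

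Pparg, the regulator, was near the median of all signals on the arrays, with 8.10, 8.52 and 7.77 at week 1, 7.93, 7.82 and 8.14 at week 2 and 8.76, 8.23 and 8.17 at week 3, against 8.34, 7.90 and 8.14 in healthy arrays. The groups overlapped except for week 3 and week 2. The difference at week 3 was 0.26 (95% interval -0.20 to 0.71), and between week 3 and week 2 it was 0.42 (-0.01 to 0.85, adjusted p = 0.302).

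Counts over the 9 genes are set beside those over all genes. Arrays of the groups did not overlap for 2 of 9 members at week 1, 4 at week 2 and 3 at week 3 against healthy arrays, where 16.1%, 17.7% and 30% of all genes did not overlap. Between week 3 and week 2 it was 3 of 9 (25.4% of all genes), between week 3 and week 1 2 of 9 (21.7%) and between week 2 and week 1 1 of 9 (13.1%). No member was called between week 3 and week 2 or between week 3 and week 1, where 2.1% and 0.841% of all genes were called. None was called between week 2 and week 1 either, where limma called 0 of 18193 genes and 1192 (6.55%) had an unadjusted p below 0.05, Fabp5 among them. The median log2 fold change of the members against healthy arrays was 0.00 at week 1, -0.17 at week 2 and -0.01 at week 3, and that of all genes was 0.05, 0.03 and 0.03.

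Other genes of fatty acid handling, in 4 lists with 72 measured genes, had 5 calls at week 3, 1 at week 1 and none at week 2. Of all genes, 5.01% were called at week 3, 0.0495% at week 1 and 0.242% at week 2. At week 3, 2.38% of all genes were called higher and 2.63% lower. Of 16 genes of uptake and transport, 1 rose and 2 fell at week 3, while none was called at weeks 1 and 2. Vldlr encodes the very low density lipoprotein receptor, which takes up triglyceride-rich particles. It had 8.65, 8.47 and 8.98 at week 3, against 9.78, 10.08 and 9.92 in healthy arrays, with no overlap. Vldlr was 2.34-fold lower (log2 fold change -1.22, SE 0.16, adjusted p = 0.0103) and passed with any 1 array left out. Its probe set has the suffix for probes that may cross-hybridise, and without such probe sets the difference was -1.03 (adjusted p = 0.0741). At weeks 1 and 2 Vldlr was -0.76 and -1.09 from healthy arrays (adjusted p = 0.111 and 0.122).

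Meox2, a homeobox factor that drives fatty acid uptake genes with TCF15 in heart endothelium, was -0.81 from healthy arrays at week 3 (SE 0.14, adjusted p = 0.0292). Scarb1, the high density lipoprotein receptor gene, had 13.35, 13.32 and 13.33 at week 3, against 12.70, 12.77 and 12.75 in healthy arrays. Every week 3 array of Scarb1 was above every healthy one, and the difference was 0.60 (SE 0.10, adjusted p = 0.0209). The Scarb1 call was lost without any 1 array (adjusted p 0.061 to 0.0751), and the Meox2 call was lost without any 1 array (0.0557 to 0.0962) other than replicate 1 of week 3 (0.0318).

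Of 19 genes of lipid droplets and intracellular lipases, 1 fell at week 3 and none was called at weeks 1 and 2. It was Hilpda, which encodes a second, hypoxia-induced inhibitor of ATGL and is also a marker of general capillary ECs. Hilpda had 11.17, 11.17 and 11.01 at week 3 and 11.80, 11.85 and 11.65 at week 2, against 11.85, 11.68 and 11.86 in healthy arrays. The week 3 arrays stood below all other arrays of the series. The difference was -0.68 between week 3 and healthy arrays (SE 0.11, adjusted p = 0.0223) and -0.65 between week 3 and week 2 (SE 0.10, adjusted p = 0.0377), and at week 1 it was 0.00 against healthy arrays. Both Hilpda calls were lost when any 1 array was left out (adjusted p 0.0508 to 0.0785 and 0.079 to 0.121).

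Of 21 genes of fatty acid activation and beta-oxidation, Acaa2 fell at week 3 and none was called at weeks 1 and 2. Acaa2, the mitochondrial thiolase of the last step of beta-oxidation, was at 11.08, 11.07 and 11.08 at week 3, against 11.62, 11.52 and 11.53 in healthy arrays. The difference was -0.48 (SE 0.10, adjusted p = 0.0425), and it did not pass with any 1 array left out (0.0954 to 0.127).

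Of 16 partners and targets of PPARs, Cebpa fell at week 1 and none was called at weeks 2 and 3. Cebpa encodes a transcription factor that works with PPARG in adipocytes and is also expressed in alveolar type 2 cells and macrophages. It had 7.53, 7.69 and 7.65 at week 1, against 8.98, 9.48 and 9.22 in healthy arrays, without overlap. The difference was -1.60 at week 1 (SE 0.15, adjusted p = 0.0394), -1.39 at week 2 (adjusted p = 0.116) and -1.13 at week 3 (adjusted p = 0.103), and the week 1 call was lost with any 1 array left out (0.0597 to 0.204). The alveolar type 2 list, which was lower in the same arrays, stands beside this result, and its part was not tested. Pdk4, a PPAR target that slows glucose oxidation, was -0.96 at week 3 without passing (adjusted p = 0.0968).

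**Figure D5:**
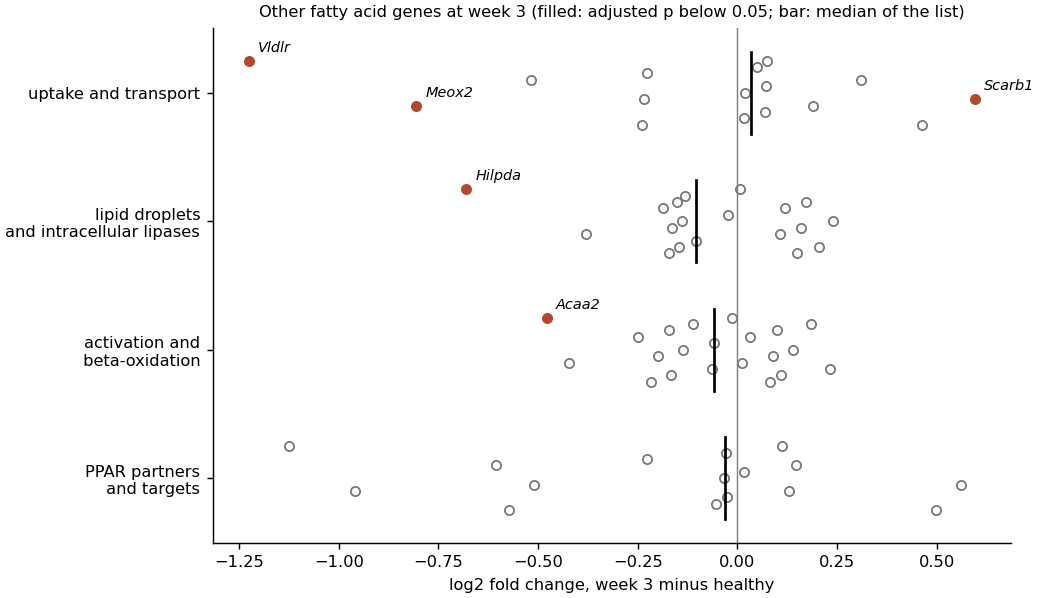
Log2 fold change between week 3 and healthy arrays (x axis) of the measured genes of 4 lists (rows), 1 point for each gene, with a bar at the median of each list. The 5 filled points are Vldlr, Meox2, Hilpda, Acaa2 and Scarb1, and the medians lie between -0.10 and 0.03.

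The medians of the 4 lists at week 3 were 0.03, -0.10, -0.06 and -0.03 in the order above, beside 0.03 for all genes. The genes whose signals most resembled G0s2 over the 12 arrays were Dpep1 (Pearson r = 0.96), which encodes a membrane dipeptidase, Chst5 (0.96), a sulfotransferase gene, and Plxdc2 (0.96). In all, 35 genes had r above 0.9 with G0s2. Dpep1 averaged 9.19, 9.29 and 8.57 at weeks 1, 2 and 3, against 11.01 in healthy arrays, and all its metastatic arrays lay below all its healthy arrays, as for G0s2. Because Dpep1 was picked for its likeness to G0s2 on these same arrays, that agreement is a description and not separate evidence.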

How the data were processed

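The authors hybridised RNA of sorted lung ECs to Affymetrix mouse genome arrays and deposited log2 signals normalised by robust multi-array averaging in Chipster. This fits arrays to 1 distribution, so changes are relative to the array as a whole. Of 45101 probe sets, 64 array controls were left out. Gene names came from the platform annotation, in which 34945 probe sets had 1 gene symbol, 932 several and 9160 none. A gene was read through its single-symbol probe set of highest mean, and 9010 genes had more than 1.

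Groups were compared by limma 3.58.1 (R 4.3.3), 2 groups at a time as in the methods of the study, with Benjamini-Hochberg adjustment over 45037 probe sets. The fit was tested on simulated data. The alternatives were 1 fit of all arrays, the replicate number as a block, a further quantile normalisation, a filter on dim probe sets, removal of probe sets with suffixes, averaging of probe sets, a trended and robust variance, and leaving out each array.

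Members and lists were chosen with earlier results of these data known. Named genes were all members, per list and comparison up to 4 genes past the threshold or else among the 2 of largest change, and the 3 genes most like a member past the F test. The number of arrays limits the precision, and p-values measure the spread between these arrays, which may be technical in part. Promoters came from RefSeq.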

Additional observations from a re-analysis of the deposited data

Results flagged for a closer look

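For Pnpla2, all 3 week 2 arrays lay above the healthy mean of 11.55 and all 3 week 3 arrays below it, although the groups overlapped and neither week passed against healthy arrays. The differences were 0.17 at week 2 (95% interval -0.12 to 0.47, adjusted p = 0.686) and -0.30 at week 3 (-0.65 to 0.05, adjusted p = 0.307), and the second probe set gave 0.026 at week 2. The direct comparison of week 3 with week 2 gave -0.48 on the log2 scale and did not pass either (limma, adjusted p = 0.116). Groups of 3 arrays were not searched for outlying arrays.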

How the results depend on the processing

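The number of members called at week 1 was 1 and became 0 with the replicate block and 0 to 0 with an array left out. The number of all probe sets called moved with the setting too. At week 1 it was 16 in the main fit, 311 with all arrays in 1 fit and 0 with the block. A gain or loss in the counts below is therefore not a result about the members alone. At week 2 the number of members called was 0 and became 1 (G0s2) with all arrays in 1 fit, the filter, averaged probe sets or trended variance, and 0 to 1 with an array left out. At week 3 it was 1 and became 2 with the filter (Fabp4 added), 3 with averaged probe sets (Fabp4, Angptl4) and 2 with trended variance (Fabp4), and 1 to 2 with an array left out. Between week 3 and week 2 it was 0 and became 1 in 1 fit (Fabp5) or with trended variance (Pnpla2), and 0 to 1 with an array left out. For the F test it was 1 and became 2 with averaged probe sets (Pnpla2) or trended variance (Fabp5), and 1 to 2 with an array left out (2 without replicate 2 of week 3). Between week 3 and week 1 and between week 2 and week 1 it was 0 under every alternative run. Replicate numbers did not pair the arrays: deviations of same-numbered arrays correlated at -0.10 to 0.06 over 18 pairs, and 11 of 36 were best with their own number. With the block G0s2 had adjusted p = 0.18 at week 1 and 0.0212 at week 3, and the calls of Cebpa, Scarb1, Meox2, Hilpda and Acaa2 were lost; the count of members called changed in no other comparison.

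Near 0, signs turned. Without suffixed probe sets Fabp5 was 0.16 and Pnpla2 -0.40 at week 1, and Cd36 -0.022 at week 3. With averaged probe sets Pnpla2 was -0.17 at week 1, Cd36 -0.0062 at week 2 and -0.11 at week 3, Cpt1a 0.014 at week 3 and Lpl -0.064 between week 3 and week 2. With an array left out, the week 1 differences ran from -0.41 to 0.19 for Lpl, -0.090 to 0.10 for Cpt1a, -0.19 to 0.18 for Pparg and -0.051 to 0.16 for Pnpla2. At week 2 they ran from -0.18 to 0.23 for Fabp4 and -0.14 to 0.086 for Lpl, and at week 3 from -0.023 to 0.030 for Cd36 and -0.11 to 0.068 for Lpl. Between week 3 and week 2 they ran from -0.095 to 0.13 for Lpl and -0.11 to 0.11 for Cpt1a. Between week 3 and week 1 they ran from -0.20 to 0.40 for Lpl, -0.35 to 0.040 for Angptl4 and -0.21 to 0.0066 for G0s2. Between week 2 and week 1 they ran from -0.21 to 0.39 for Lpl, -0.35 to 0.028 for Pparg and -0.063 to 0.26 for G0s2. None of these values passed the threshold, and the cause was not tested.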
